A study of Sus scrofa with 9 samples.

Results

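The names of miR-190 and miR-375 were read in small RNA libraries of pig (Sus scrofa) gametes and 1-cell embryos. Members were every name in the deposited table that, apart from the species prefix, begins with miR-190 or miR-375. This rule found 3 names of 1313: ssc-miR-190a_R+2, ssc-miR-190b and ssc-miR-375. The miRNAs had been selected on their high level in sperm in these same libraries, so their sperm values are a description and carry no test. For miR-190a the data went against that description, since its single name was listed at 0 in every sperm library.

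The study compared oocytes held at the second meiotic metaphase (MII oocytes), 1-cell embryos with pronuclei (PN embryos) and mature sperm, to look for RNA that sperm bring into the egg. Each of the 3 groups had 3 libraries, labelled only by species, cell or embryo and the absence of treatment, with no genotype. By the methods of the study, the oocytes came from ovaries of postpubertal Long White gilts and were matured in vitro, and RNA was taken from large pools freed of cumulus cells. The sequenced sperm were fresh, purified and from adult Large White boars, whereas the semen described for in vitro fertilization, which gave the PN embryos, was from Landrace boars. Neither the labels nor the methods tie a library to an animal, so that p-values measure the spread between libraries only, which may be technical.

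A miRNA is a short RNA that guides Argonaute proteins to messenger RNAs, chiefly through its seed near the 5′ end, and lowers their stability or translation. miR-190a and miR-190b come from different genes and share a seed. The gene of miR-190a lies in an intron of TLN2 in mammals, the gene of talin 2, which links integrins to actin. miR-375 is best known from pancreatic islets, where it restrains insulin secretion and targets myotrophin, and it is also found in other endocrine and epithelial tissues. Mature sperm are almost silent in transcription, and the small RNA they hold is left from spermatogenesis or gained in the epididymis.

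In the RefSeq annotation of Sscrofa11.1, the build that the submitters' processing notes name, the hairpin gene MIR190A is at chr1:109225385-109225466. It lies inside the span of TLN2 (chr1:109208663-109680663). MIR190B is at chr4:95540606-95540688, within no other annotated gene. Its nearest protein-coding genes are C4H1orf189, 5854 bases to the left, and TPM3, a tropomyosin gene, 1641 bases to the right. The strand and exon limits were not used here.

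The MII oocyte libraries held 289183 to 381674 counts, the PN embryo libraries 422630 to 771001 and the sperm libraries 1640492 to 2455102, so depth and group cannot be told apart. Levels are given as CPM, the count divided by the library total and scaled to 1000000. The table held 435 values equal to 5, 314 values above 0 and below 5, of which 132 were whole, and 0 values equal to 1. How low values were listed is thus unclear, and a listed 0 was taken as up to 5 reads per library, which is more than the 3 that a count of 0 allows and gives lower folds. This floor was 13.1 to 17.3 CPM in MII oocytes, 6.49 to 11.8 CPM in PN embryos and 2.04 to 3.05 CPM in sperm. Intervals and floors cover counting error only. CPM is a share of each library's small RNA, and amounts per cell, or fewer contributing cells, cannot be told apart from it.

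The sperm label was checked on a list of miRNAs known from testis and sperm (miR-34b, miR-34c, miR-449a and miR-191), which was written with these data known and is not independent evidence. All 11 of its names tested were higher in sperm than in MII oocytes, with a median log2 fold change of 8.47 against 0.00 over all names. The calls were made with the edgeR quasi-likelihood test at an adjusted p-value (q) under 0.05 and a log2 fold change of 1 or more in size, which called 42.2% of names higher and 40.7% lower in this contrast. The list summed to between 219633 and 222195 CPM in the sperm libraries. The MII oocyte libraries reached between 5811 and 6345 CPM and the PN embryo libraries between 7511 and 7617 CPM. Of its names, 1 was called higher and 0 lower in PN embryos against MII oocytes, against 11.2% and 1.70% of all names.

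Nearly all reads of miR-190b were in sperm. ssc-miR-190b had 5269, 5545 and 7831 reads in sperm libraries 1, 2 and 3, or 3212, 3199 and 3190 CPM. No MII oocyte library listed it, and among PN embryos library 2 had 6 reads and libraries 1 and 3 had 0. All sperm libraries were far above all others, and the 1 value in PN embryos was at 8.63 CPM (exact 95% binomial interval from 3.17 to 18.8 CPM), close to the floor of 7.19 CPM in that library.

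The mean in sperm was 3200 ± 11.1 CPM (SD, n = 3), or 0.320% of the counts, and ssc-miR-190b ranked 50 among all names. At that level the MII oocyte libraries would have held between 925 and 1221 reads of it and the PN embryo libraries between 1352 and 2467. With listed zeros set at 5 reads and all names kept in the library totals, sperm was at least 204-fold above MII oocytes. It was 356-fold above PN embryos, whose floor was lower and whose library 2 entered at its listed value of 8.63 CPM, so this is not a lower limit. These ratios depend on the library totals, since ssc-miR-205_R+1 alone took from 45.8% to 49.3% of the counts in MII oocytes and from 45.1% to 45.8% in PN embryos. Without that name in the totals they were 107-fold and 194-fold.

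**Figure D1:**
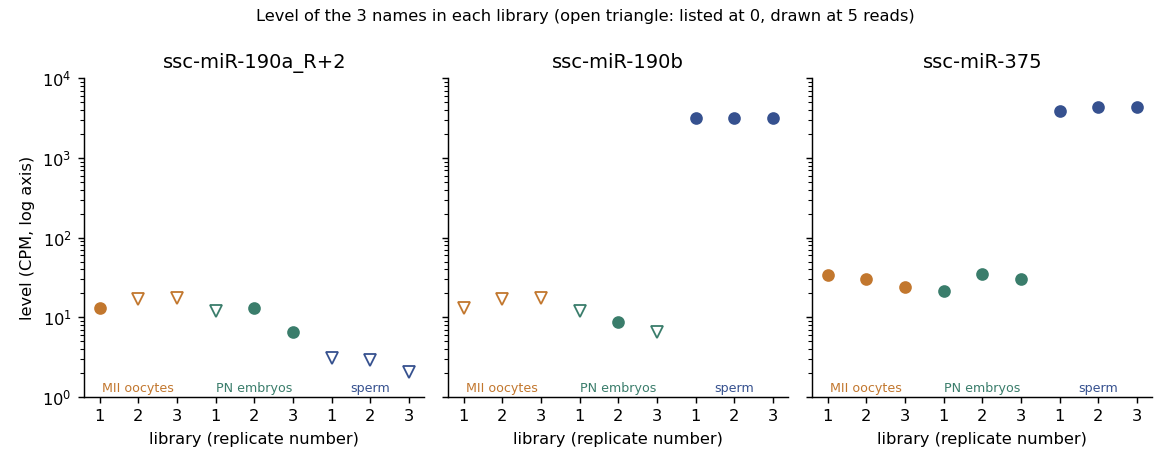
Level of each member in each of the 9 libraries, in CPM on a log axis, with filled points for listed values and open triangles, drawn at 5 reads, for values listed at 0. For ssc-miR-190b and ssc-miR-375 every sperm value lies above all values of the other groups, and ssc-miR-190a_R+2 is listed at 0 there.

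miR-375 was also high in sperm but, unlike miR-190b, it was listed in every library of each group. ssc-miR-375 had 6456, 7646 and 10870 reads in sperm, or 3935, 4411 and 4428 CPM. In MII oocytes it had 13, 9 and 7 reads, or 34.1, 30.1 and 24.2 CPM. In PN embryos it had 9, 24 and 23 reads, or 21.3, 34.5 and 29.8 CPM. The lowest sperm library was over 100 times the highest library of either other group, whereas MII oocytes and PN embryos overlapped.

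Its mean over the sperm libraries was 4258 ± 279 CPM (SD, n = 3), or 0.426% of the counts. Over the MII oocyte libraries it was 29.4 ± 4.96 CPM and over the PN embryo libraries 28.5 ± 6.70 CPM (SD, n = 3 each). It ranked 42 among all names in sperm, 322 in MII oocytes and 370 in PN embryos. The ratio of means was 145 for sperm to MII oocytes and 149 for sperm to PN embryos, and it was 76.3 and 81.6 without ssc-miR-205_R+1 in the totals. In the fit over all names, the log2 fold change of sperm against MII oocytes was 7.21 ± 0.15 (SE), and against PN embryos it was 7.30 ± 0.13 (SE). The median over all 587 names tested was 0.00 in the first of these contrasts and -0.52 in the second.

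ssc-miR-190b and ssc-miR-375 were both called higher in sperm against MII oocytes, where 42.2% of all names were, and against PN embryos, where 38.8% were. Because the miRNAs were selected on this difference, the count of 2 of 2 tested describes the choice. Most names this abundant in sperm were also present in oocytes. Of 86 names with at least 1000 CPM in every sperm library, 7 were listed at 0 in all MII oocyte libraries, and ssc-miR-190b was among them. Of the other 79, 4 had a larger ratio of sperm to MII oocytes than ssc-miR-375, namely PC-3p-835_6880, cfa-miR-449a, ptr-miR-203_L-1R+1 and ssc-miR-425-5p. Not all of the 86 names are independent. ssc-miR-17-5p and ssc-miR-106a_R-1_1ss1AC had equal means (1256 CPM in sperm), and several of the 7 were variants of miR-1246.

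**Figure D2:**
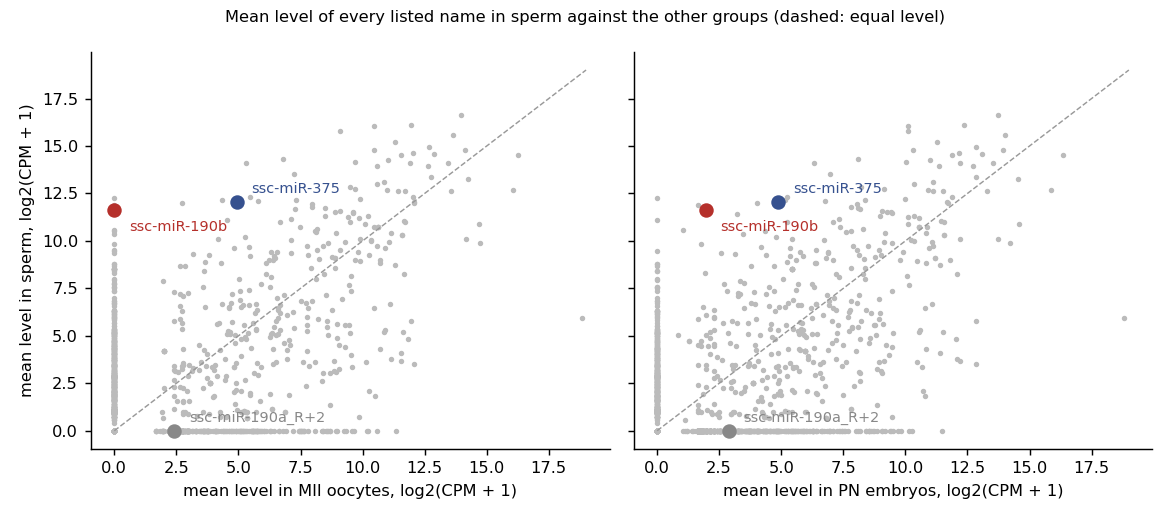
Mean level of every listed name in sperm against MII oocytes (left) and PN embryos (right), each as log2(CPM + 1), with the members coloured and a dashed line at equal level. ssc-miR-190b and ssc-miR-375 lie far above the line in both panels and ssc-miR-190a_R+2 lies at 0 in sperm.

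miR-190a was near the limit of detection everywhere and had the opposite distribution. ssc-miR-190a_R+2 had 5, 0 and 0 reads in MII oocytes (13.1 CPM in library 1). In PN embryos it had 0, 9 and 5 reads, or 0, 12.9 and 6.49 CPM. All 3 sperm libraries listed 0, although they were the deepest. At the PN embryo mean of 6.48 CPM they would have held between 10.6 and 15.9 reads, and at the MII oocyte mean of 4.37 CPM between 7.16 and 10.7 reads. With 19 reads in all, this name did not pass the filter on low counts. The suffix R+2 marks a variant of the mature sequence, in a notation that the sources used here do not explain.

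Thus each miRNA was listed under 1 name, which held 100% of its reads, and no second arm or further variant of any was listed. The counts of the 3 names repeated those of 0 other names.

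Setting PN embryos against MII oocytes asked whether these miRNAs rose after fertilization, and it played no part in how they were selected. In the fit over all names only ssc-miR-375 could be tested. It was not called by the edgeR quasi-likelihood test or by DESeq2, nor did it reach an unadjusted p under 0.05 by either, where edgeR called 12.9% of 587 names, 11.2% higher and 1.70% lower. For ssc-miR-375 the log2 fold change was -0.09 ± 0.30 (SE), with a 95% interval from -0.75 to 0.58 and an edgeR q of 0.997. The interval allows levels in PN embryos from 0.594 to 1.49 times those in MII oocytes. A change smaller than this was not detectable with 29 reads in all MII oocyte libraries together and 56 in all PN embryo libraries. ssc-miR-190b passed the filter on low counts through its sperm reads alone. With 6 reads in PN embryo library 2 and 0 in the 5 other libraries of this contrast, it gave no usable test and no fold.

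The same was asked of the summed level of miR-375 and miR-190a with a two-sided exact permutation test over the 3 libraries of each group, whose smallest possible p is 0.1. miR-375 differed by -0.900 CPM in PN embryos minus MII oocytes (exact permutation p = 0.900). The difference of 2.11 CPM for miR-190a gave an exact permutation p of 1.00, on 5 reads in MII oocytes and 14 in PN embryos. Adjusted over the 3 miRNAs, p was 1.00 for both. For miR-190b, listed in 1 of the 6 libraries, every split of the libraries gives a difference of the same size, so its 2.88 CPM has no test.

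**Figure D3:**
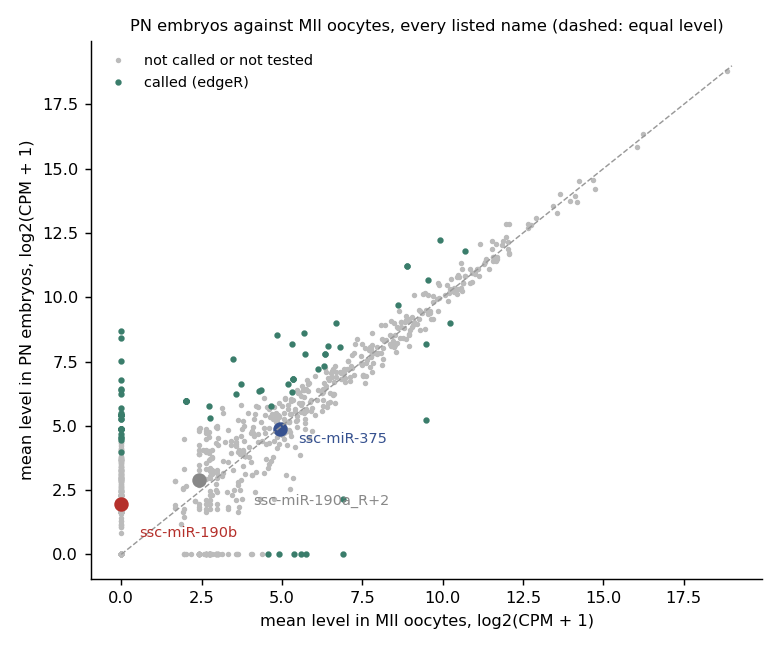
Mean level of every listed name in PN embryos against MII oocytes, as log2(CPM + 1), with names called by edgeR in green and the members marked. ssc-miR-375 lies on the dashed line of equal level, and the other members lie among the names near the floor.

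The miR-190b and miR-375 levels differed in how evenly they were spread over the sperm libraries. For ssc-miR-190b the coefficient of variation was 0.348%, below the 1.27% that counting error alone gives on average, so no spread beyond counting error was seen. The exact 95% intervals of the libraries overlapped (from 3126 to 3300, from 3115 to 3284 and from 3120 to 3261 CPM). Over 111 names with at least 1000 reads in every sperm library, some with equal counts, the median coefficient of variation was 4.03%, and 3 names were more even than ssc-miR-190b.

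For ssc-miR-375 it was 6.56%, with 1.10% from counting error, and 35 of the 111 names varied more. Sperm library 1 was 10.9% below the mean of the others, and its interval, from 3840 to 4032 CPM, lay under those of library 2 (from 4313 to 4511 CPM) and library 3 (from 4345 to 4511 CPM). Such a dip was not particular to ssc-miR-375, since 18 of the 111 names were lower still in library 1 relative to the others. The ratio of ssc-miR-375 to ssc-miR-190b reads was accordingly 1.23 in library 1, 1.38 in library 2 and 1.39 in library 3.

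**Figure D4:**
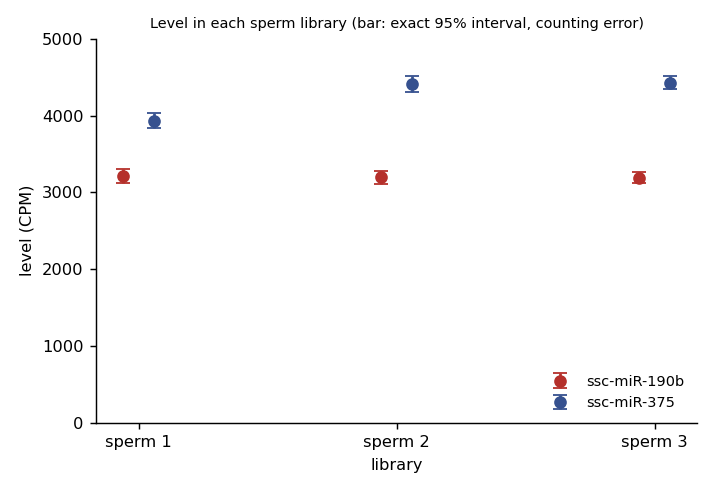
Level of ssc-miR-190b and ssc-miR-375 in each sperm library in CPM, with bars for the exact 95% binomial interval (counting error only). ssc-miR-190b is level at about 3200 CPM, and ssc-miR-375 is lower in library 1 than in libraries 2 and 3.

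**Figure D5:**
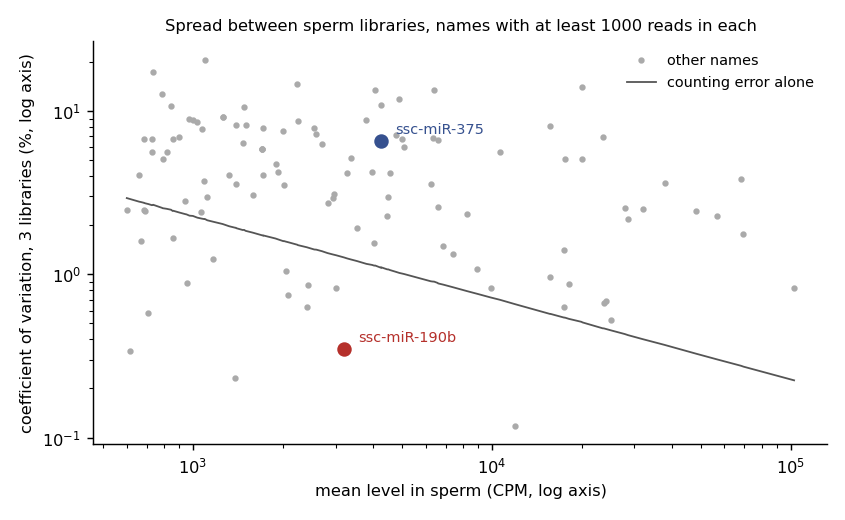
Coefficient of variation over the 3 sperm libraries against mean level in sperm, both on log axes, for the 111 names with at least 1000 reads in each library, with the line for counting error alone. ssc-miR-190b lies under the line at 0.348% and ssc-miR-375 above it at 6.56%.

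Names with a like pattern were taken as those with the smallest Euclidean distance in log2(CPM + 1) over the 9 libraries, a description over libraries that share their groups. Nearest to ssc-miR-190b were mdo-miR-34b-5p (distance 3.11), cfa-miR-203_R-2 (3.19) and hsa-miR-1246_L-1_1ss17AT (3.44). Like ssc-miR-190b, all were listed at 0 in MII oocytes, and their means in sperm were 2703 ± 169, 898 ± 62.7 and 4905 ± 586 CPM (SD, n = 3). In PN embryos mdo-miR-34b-5p was listed in 2 libraries, cfa-miR-203_R-2 in 1 and the miR-1246 name in 0.

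Nearest to ssc-miR-375 was mmu-miR-34c-3p_L-1_1ss16AG (distance 1.81), named for an arm of miR-34c, a miRNA known from male germ cells. Its mean was 5015 ± 338 CPM in sperm, against 43.1 ± 17.9 CPM in the oocytes and 36.2 ± 12.6 CPM in the embryos (SD, n = 3). ssc-mir-1285-p5 (distance 3.68) and ssc-miR-10a-5p (3.85) followed. Nearest to ssc-miR-190a_R+2 were other names of few reads, PC-3p-133354_17 (distance 0.582), PC-5p-107084_24 (1.04) and efu-mir-9277-p3 (1.09), each listed in 1 MII oocyte library, 2 PN embryo libraries and 0 sperm libraries.

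miRNAs of endocrine and neural tissues, listed as tissues where miR-375 or miR-190 is known, were read beside the members. On the endocrine and neural list (miR-7, miR-9, miR-124, miR-129 and miR-153), 7 of 13 names tested were called higher in sperm than in MII oocytes and 5 lower. Over all names 42.2% were called higher and 40.7% lower. The median log2 fold change of the list was 3.42, also the value of ssc-miR-9-2, against 0.00 over all names. Its miR-9 names were not all independent, since those of the 3p arm had equal coefficients of variation in sperm (4.03%). ssc-miR-9-2 had 7402 ± 99.1 CPM in sperm against 716 ± 201 CPM in MII oocytes (SD, n = 3). ssc-miR-7-5p, a miRNA also known from islets, was at 4065 ± 546 and 4241 ± 633 CPM (SD, n = 3; edgeR q = 0.977). The leading names of miR-124 and miR-129 were lower in sperm. ssc-miR-124a_R-2 had 11.0 ± 0.588 against 53.2 ± 15.0 CPM, and ssc-miR-129a-3p had 287 ± 14.2 against 741 ± 41.8 CPM (SD, n = 3; edgeR q = 0.00122 and 1.31e-07). In PN embryos against MII oocytes 0 names of this list were called higher and 2 lower, against 11.2% and 1.70% of all names. Its sum lay between 4959 and 6584 CPM in the oocyte libraries, between 4692 and 4974 CPM in the embryo libraries and between 13881 and 14557 CPM in the sperm libraries, and miR-153 was listed at 0 in MII oocytes and PN embryos.

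Semen can carry epithelial cells and blood cells, and oocytes can carry cells of the follicle. On the epithelial list (miR-200a, miR-200b, miR-200c, miR-141, miR-429, miR-205 and miR-203), 6 of 10 names tested were higher in sperm than in MII oocytes and 3 lower, against 42.2% and 40.7% of all names. The list had a median log2 fold change of 3.42 against 0.00 over all names. It had 0 names called in PN embryos against MII oocytes, where 12.9% of all names were. Its sum lay between 460154 and 494621 CPM in the oocyte libraries, between 453356 and 459714 CPM in the embryo libraries and between 11722 and 12447 CPM in the sperm libraries. Without miR-205 its sums were between 1359 and 1748, between 1408 and 1618 and between 11646 and 12362 CPM, and ssc-miR-200b_R-1 reached 3976 ± 168 CPM in sperm from 249 ± 69.6 CPM in MII oocytes (SD, n = 3; edgeR q = 6.43e-10). miR-429 was listed at 0 in MII oocytes and PN embryos. Other members of the list did not all follow. cfa-miR-200c had 1888 ± 89.2 CPM in sperm against 1087 ± 62.5 CPM in MII oocytes, under the fold required for a call, and ssc-miR-141 fell to 33.1 ± 8.82 CPM from 94.8 ± 28.9 CPM (SD, n = 3; edgeR q = 0.00131). The summed level without miR-205 was higher in sperm, as was ssc-miR-375, and the part of epithelial RNA in its sperm level was not tested.

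On the blood list (miR-451, miR-486, miR-144, miR-142, miR-223 and miR-150), 1 of 5 names tested was called higher and 1 lower in sperm than in MII oocytes, against 42.2% and 40.7% of all names. The list had 2 names called higher in PN embryos than in MII oocytes, where 11.2% of all names were. Its sum lay between 166 and 314 CPM in the oocyte libraries, between 837 and 875 CPM in the embryo libraries and between 268 and 380 CPM in the sperm libraries. miR-223 was listed at 0 in MII oocytes and miR-150 in PN embryos. On the oocyte and follicle list (miR-202, miR-143, miR-145 and miR-224), 5 of 5 names fell in sperm against MII oocytes (median log2 fold change -5.18), where 40.7% of all names were called lower. The list had 0 names called in PN embryos against MII oocytes, where 12.9% of all names were. Its sum lay between 740 and 1268 CPM in the oocyte libraries, between 970 and 1041 CPM in the embryo libraries and between 41.5 and 64.6 CPM in the sperm libraries. Thus 2 names of the blood list rose in PN embryos while ssc-miR-375 was not called there, and the part of blood or follicle RNA in its low level in oocytes and embryos was not tested.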

How the data were processed

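Small RNA was sequenced from 3 libraries each of MII oocytes, PN embryos and sperm. Adapters were ligated to both RNA ends, followed by reverse transcription, PCR and gel selection. The values deposited by the authors were estimated counts per name, marked raw and not normalized. The submitters' processing notes name the genome build Sscrofa11.1. The aligner, the miRNA caller and the count filter were not given in the sources used here, and 19.8% of values above 0 were not whole. Groups came from sample titles and columns from library names, with 0 unmapped columns. Rows of the same name were summed.

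Counts were rounded and compared with edgeR 4.0.16 in R 4.3.3 (quasi-likelihood test, all 9 libraries, TMM, filterByExpr with a minimum count of 10, Benjamini-Hochberg adjustment over 587 names, which held 99.8% of counts). Each standard error was the size of the fold change over the root of its F statistic. DESeq2 1.42.0 served as an alternative. The fit was also run on simulated counts with changes of a single fixed size, which says nothing of smaller changes. The members and lists were chosen with earlier results of these data known. Named were all members, the 3 nearest names to each by log2(CPM + 1) and leading names of the lists. Chosen after their values were seen were the 4 names with a larger ratio than ssc-miR-375 and the names of steady ratio in the closing section. Mature sequences were not analysed here. Locations came from RefSeq gene records, where 2 of the 3 miRNAs were found by symbol.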

Additional observations from a re-analysis of the deposited data

How the results depend on the processing

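In PN embryos against MII oocytes 0 members were called under all 20 alternatives, which says nothing of ssc-miR-190b, read in 1 of the 6 libraries. In sperm, ssc-miR-190b and ssc-miR-375 were called higher against each other group under all 20. They were selected on this difference, so these calls describe the choice and are no test of it. In the main fit 42.2% of all names were called higher against MII oocytes and 38.8% against PN embryos. With no filter on low counts ssc-miR-190a_R+2 was also called in both sperm contrasts, lower in sperm. That call rests on 5 reads in 1 MII oocyte library and 14 reads in 2 PN embryo libraries. The share of all names called lower was not taken for the unfiltered fit. In the main fit it was 40.7% against MII oocytes. The direction of ssc-miR-375 in PN embryos against MII oocytes was not stable. Its log2 fold change of -0.0857 became 0.139 with names of identical counts counted once and lay between -0.212 and 0.198 with 1 library left out, with the sign changed to 0.198 without MII oocyte library 1 and 0.021 without PN embryo library 1 (edgeR or DESeq2 q from 0.847 to 1.00 over all alternatives). Its difference in CPM ran from -3.88 to 2.73 when 1 library was left out (1.41 without MII oocyte library 1 and 2.73 without PN embryo library 1), and that of miR-190a from -1.12 to 6.48 (-0.0736 without MII oocyte library 2 or 3 and -1.12 without PN embryo library 2). That of miR-190b was 0 without PN embryo library 2. Without ssc-miR-205_R+1 in the totals, a choice made after the data were seen, the ratios for miR-190b were 107-fold and 194-fold against 204-fold and 356-fold, and those for miR-375 were 76.3 and 81.6 against 145 and 149, because that name is nearly absent from sperm. With the replicate number as a block the log2 fold change of ssc-miR-375 was -0.121 (edgeR q = 0.951), and 0 members were called in PN embryos and 2 in each sperm contrast. Same-numbered libraries of MII oocytes and PN embryos deviated with correlations of -0.0882, 0.0102 and -0.0271, which gave no sign of pairing by number. Many names had few reads, so these values cannot exclude a pairing. In the other contrasts correlations ran from -0.211 to 0.0273.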

Other observations

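In the sperm libraries ssc-miR-375 kept a steady ratio to the name nearest to it by distance, which was taken over the same libraries among the 9. The ratio of ssc-miR-375 to mmu-miR-34c-3p_L-1_1ss16AG was 0.851, 0.849 and 0.847 in sperm libraries 1, 2 and 3. The coefficient of variation of this ratio, 0.202%, was the smallest among 109 other names with at least 1000 reads in every sperm library, where the median was 6.21%. That is below the counting error of either name alone, 1.10% for ssc-miR-375 and 1.01% for the miR-34c name. A ratio carries the error of both, so a spread this small cannot show that they moved together. pal-miR-15b-3p_R-1_1ss1CT followed at 0.326%. For ssc-miR-190b the steadiest ratios were those to ssc-miR-101_R+1 (0.315%) and ssc-miR-181a_R-1 (0.366%), with a median of 3.99%. These names were chosen after their values were seen, as the smallest of many over 3 libraries, and no test was made. In MII oocytes and PN embryos the ratio of ssc-miR-375 to the miR-34c name ran from 0.412 to 1.44, on few reads.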
